A study of Mus musculus with 19 samples.

Results

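Neurexins, neuroligins and the leucine-rich repeat transmembrane proteins (LRRTMs) are adhesion proteins of the synapse. The genes described are Nrxn2 and Nrxn3, which encode neurexins, Nlgn1, Nlgn2 and Nlgn3, which encode neuroligins, and Lrrtm1, Lrrtm2, Lrrtm3 and Lrrtm4. They were taken by matching the Ensembl identifiers of the count tables to these symbols in the annotation of GRCm38, and are 9 of the 47069 genes listed. All 9 passed the filter on low counts, which left 15941 genes to test.

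RNA was sequenced from cells of the mouse retina at embryonic stage E16.5. Axons of ganglion cells leave the eye through the optic nerve, and their side of projection is set at the chiasm. Ipsilateral retinal ganglion cells (iRGCs) were GFP+ cells sorted from retinas carrying Slc6a4-Cre, the ET33 Sert-Cre transgene driven by serotonin transporter sequences, and contralateral ones (cRGCs) were GFP+ cells sorted from retinas carrying Pou4f2-Cre, a Cre targeted into the Brn3b locus, after the ventrotemporal region had been cut away. In both populations Cre opened a CAG-[Stop]-Sun1-GFP cassette at Rosa26, so that GFP marks the nuclear envelope of recombined cells and of their descendants. The labels give strain C57/DBA F1, genotype WT and pooled males and females for all libraries, 3 per population, and do not say whether replicates came from separate litters, so p-values measure the spread between these libraries, which may be technical. Reads counted on genes numbered 28193178 in the smallest library and 33638083 in the largest.

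Neurexins sit mainly on the presynaptic membrane and reach across the cleft to partners on the other cell. Neuroligins and LRRTMs are their classic postsynaptic partners, and they bind neurexins in ways that depend on alternative splicing of the neurexin. Inside the cell, neurexins and neuroligins end in motifs that hold PDZ-domain scaffolds, and so tie adhesion to the release machinery on one side and to receptors on the other. In ganglion cells the same families can serve the dendrites, which receive bipolar and amacrine input in the inner retina, and the axon, which releases glutamate in the brain, although at E16.5 neither kind of synapse is mature.

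The libraries were first read for what they contain. Levels are CPM, counts relative to the size of each library after TMM normalization, a scaling that takes most genes as unchanged, and log2 fold changes are those of iRGCs over cRGCs with the standard error (SE) from edgeR's quasi-likelihood test. Of the 16 markers of ganglion cells, 15 were lower in iRGCs with TMM, and their summed level was 2396, 3358 and 5081 CPM in the iRGC libraries against 13481, 11959 and 14868 CPM in the cRGC libraries, with Nefm, a neurofilament subunit, as the most abundant. All 16 pan-neuronal genes were lower too, and summed to 6156, 7420 and 10498 CPM in iRGCs against 27287, 25245 and 27920 CPM in cRGCs, with Map1b, a microtubule-binding protein, on top. Markers of retinal progenitors went the other way, with 14 of 16 higher in iRGCs and a sum of 9594 ± 834 against 2851 ± 561 CPM (SD, n = 3), led by the cyclin gene Ccnd1. All 18 cell cycle genes were higher in iRGCs, at a sum of 4167 ± 478 against 771 ± 319 CPM, with Top2a as the most abundant, and so were all 10 genes of neurogenic precursors, at 1891 ± 115 against 526 ± 138 CPM and led by Hes6. No marker gene of any list was at 0 in all libraries.

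Of 5 markers of iRGCs, 3 were higher in iRGCs and 0 lower, with a median log2 fold change of 1.34 (3.16 with libraries scaled to the pan-neuronal genes), and they summed to 248, 338 and 439 CPM in iRGCs against 191, 202 and 236 CPM in cRGCs. Zic2, the most abundant of them and a transcription factor that directs axons away from the midline, stood at 133, 173 and 157 CPM in iRGCs and at 57.0, 60.2 and 65.7 CPM in cRGCs. Slc6a4, whose sequences drive the Cre, stood at 2.06, 33.4 and 116 CPM in iRGCs against 48.1, 35.4 and 30.5 CPM in cRGCs, so that the populations overlapped and iRGC replicate 1 held almost none. Endothelial RNA was present in iRGC replicate 2, where Pecam1, which marks the vessel wall, reached 53.0 CPM against 9.65 and 0.28 CPM in the other two iRGC libraries and at most 0.72 CPM in cRGCs. The endothelial list as a whole, with 10 genes and Kdr as the most abundant, summed to 448, 648 and 436 CPM in iRGCs against 88.7, 109 and 71.8 CPM in cRGCs. Kdr alone had means of 368 and 84.8 CPM, so that sum was mostly Kdr, and whether it came from endothelial cells was not tested. Cdh5, another defining gene of the endothelium, was at 15.2, 81.3 and 0.16 CPM in iRGCs and at 0 in every cRGC library. The summed markers of photoreceptor precursors were 691 ± 100 against 210 ± 43.2 CPM, led by Otx2. Of 10 amacrine cell markers, 7 were higher in iRGCs and 1 lower with TMM, at a median log2 fold change of 1.44, although their sums, 361 ± 79.8 against 294 ± 103 CPM, overlapped, as the most abundant, Calb2, was at 47.3 CPM in iRGCs and 164 CPM in cRGCs. Mural cell markers, led by Notch3 (105 against 20.8 CPM), summed to 171 ± 90.2 against 24.8 ± 5.59 CPM, and those of microglia, led by Csf1r, to 21.0 ± 4.93 against 2.65 ± 1.54 CPM. Those of optic stalk astrocytes, led by Slc1a3, summed to 180 ± 29.2 against 35.2 ± 11.2 CPM, and those of horizontal cells, led by Onecut2, to 294 ± 16.3 against 307 ± 80.5 CPM, with overlap.

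Because the neuronal share of the RNA differed, each fold change was also computed with the libraries scaled to the pan-neuronal list. That scaling moved the median log2 fold change of all tested genes from -0.00 to 1.82. On it, 0 stands for a gene that changed as the pan-neuronal list did on average, and calls and adjusted p are tests against 0. It changes only the factor of each library, and so shifts all genes by about the same amount. Whether a gene lies above or below the median of all genes is therefore nearly fixed by the TMM fit and is no second result. Of the 16 ganglion cell markers, 1 was higher in iRGCs and 1 lower on that scaling. Gap43 and Elavl4 are in both this list and the pan-neuronal list, so the lists are not independent. In such bulk libraries, fewer neurons among the sorted cells and less of a transcript per neuron cannot be told apart. The part of progenitor, cell cycle and endothelial RNA in the differences described here was not tested.

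With TMM, 6 of the 9 members were lower in iRGCs, 2 were higher and 1 did not pass the threshold, an adjusted p under 0.1 in edgeR's test (Benjamini-Hochberg over the 15941 genes). The lower genes were Nrxn2, Nlgn2, Nlgn3, Lrrtm2, Lrrtm3 and Lrrtm4, and the higher ones Nlgn1 and Lrrtm1, while with the pan-neuronal scaling 4 members (Nrxn3, Nlgn1, Nlgn2 and Lrrtm1) were past the threshold, all higher, and 0 were lower. Among all tested genes, 46.4% were past the threshold with TMM, 23.3% as higher and 23.1% as lower, and with the pan-neuronal scaling 78.1% were higher and 0.439% lower. The median log2 fold change of the members was -1.31 with TMM, where that of all genes was -0.00, and 0.49 with the pan-neuronal scaling, where that of all genes was 1.82. In 8 members the 3 libraries of one population lay wholly above or below the other 3 (6 below and 2 above for iRGCs), which with TMM held for 55.3% of all tested genes, 28.2% below and 27.1% above. The count of 6 lower members was the same whichever single library was left out, while the count of higher members dropped from 2 to 1 without iRGC replicate 1, iRGC replicate 3 or cRGC replicate 1, each time through Lrrtm1.

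**Figure D1:**
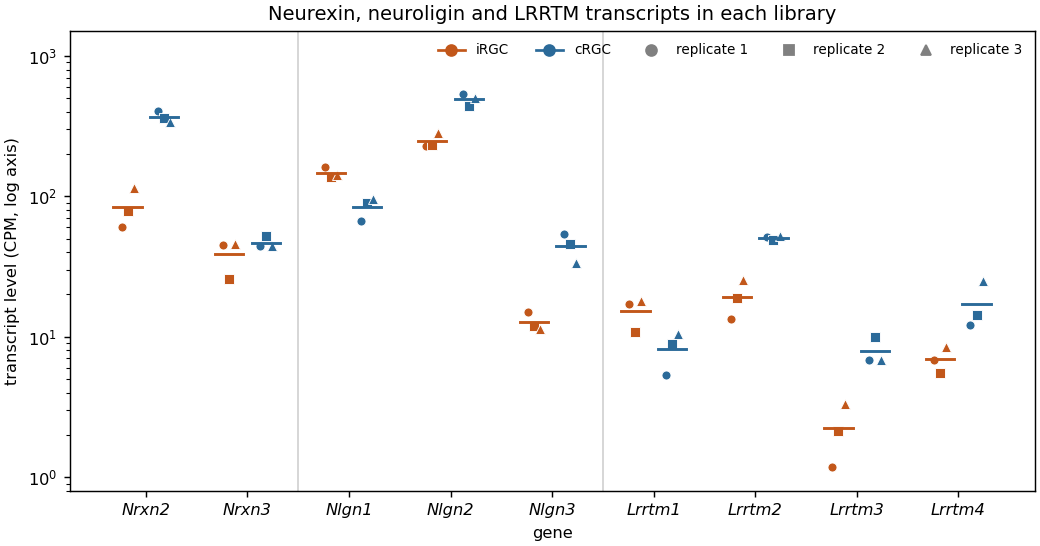
Level of each neurexin, neuroligin and LRRTM transcript in CPM after TMM normalization (log axis) in each of the 6 libraries, iRGC in orange and cRGC in blue, with the mean of the 3 libraries as a bar. The populations overlap in Nrxn3 alone, and Nlgn1 and Lrrtm1 lie higher in iRGCs where the others lie lower on this scaling.

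**Figure D2:**
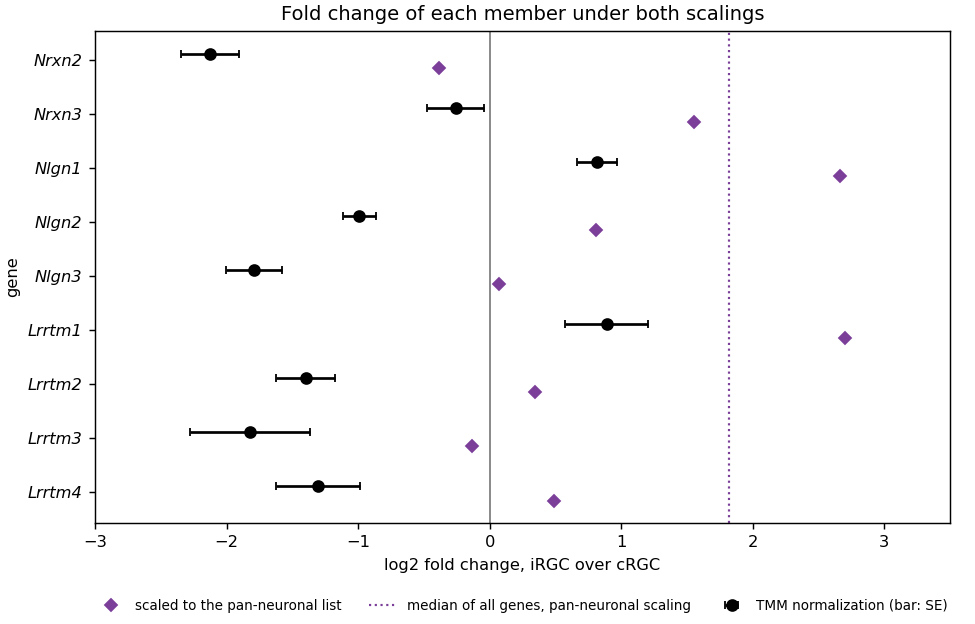
Log2 fold change of iRGCs over cRGCs for each member with TMM normalization (black, with SE) and with the libraries scaled to the pan-neuronal list (purple), beside 0 (grey line) and the median of all genes under the pan-neuronal scaling (1.82, dotted line). With TMM, Nlgn1 and Lrrtm1 lie above the median of all genes and the other 7 below it. The second scaling shifts all genes by about the same amount and so keeps these sides, while 5 of those 7 are above 0 on it.

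Nrxn2 was the member with the most negative log2 fold change. It lies on chromosome 19 (chr19:6418731-6544169, plus strand, GRCm38) and encodes neurexin-2, made as a long and a short form from separate promoters that counts per gene do not separate. Its level was 60.1, 78.7 and 115 CPM in the iRGC libraries and 406, 363 and 338 CPM in the cRGC libraries. Every cRGC library held more than any iRGC library, and the highest iRGC value was in replicate 3, the iRGC library with the highest pan-neuronal sum. The means, 84.5 ± 27.7 and 369 ± 34.5 CPM (SD, n = 3), differed 4.37-fold, a log2 fold change of -2.13 with an SE of 0.218 (edgeR, adjusted p = 2.36e-04), which became -0.39 with the pan-neuronal scaling (adjusted p = 0.134). Per 1000 CPM of the pan-neuronal sum of the same library, Nrxn2 stood at 9.76, 10.6 and 10.9 CPM in iRGCs and 14.9, 14.4 and 12.1 CPM in cRGCs, so the populations were closer and still did not overlap. Of its exonic bases, 6.44% are shared with genes of the opposite strand, one of which, Gm14964, had 13 to 67 counts per library against 1869 to 10564 for Nrxn2.

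Nrxn3 did not pass the threshold. The gene spans a much longer stretch (chr12:88722876-90334935, plus strand) and encodes neurexin-3. The libraries held 45.0, 25.9 and 46.1 CPM in iRGCs and 44.0, 51.9 and 44.1 CPM in cRGCs. Apart from a low value in iRGC replicate 2, the 6 libraries lay close together. The log2 fold change was -0.26 with an SE of 0.217 and a 95% interval from -0.68 to 0.17 (edgeR, adjusted p = 0.390), and it was 1.56 with the pan-neuronal scaling (adjusted p = 2.07e-04), where the median of all genes was 1.82. Relative to the pan-neuronal sum, Nrxn3 was at 7.31, 3.49 and 4.39 CPM per 1000 CPM in iRGCs against 1.61, 2.06 and 1.58 CPM in cRGCs, without overlap.

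Nrxn2 and Nrxn3 therefore made up different shares of their summed level. Per kilobase of exon, Nrxn2 was 54.9%, 73.5% and 69.4% of Nrxn2 plus Nrxn3 in the iRGC libraries and 89.4%, 86.4% and 87.5% in the cRGC libraries. A share within a library does not depend on how libraries are scaled to each other. The log2 ratio of Nrxn2 to Nrxn3 counts was 1.87 lower in iRGCs, and with no overlap this gave p = 0.1 in an exact two-sided permutation test, the smallest p that 3 libraries against 3 allow (adjusted p = 0.143 over the 10 pairs of members compared within families). Among all pairs of tested genes, 52.3% had ratios without overlap.

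Neuroligins bind neurexins from the postsynaptic side, and their main types are linked in the brain to different synapses, neuroligin-1 to excitatory ones and neuroligin-2 to inhibitory ones. Nlgn1 (chr3:25426215-26332460, minus strand) had 163, 138 and 142 CPM in iRGCs and 67.0, 89.4 and 95.2 CPM in cRGCs. Each iRGC library was above each cRGC library. The log2 fold change was 0.82 with an SE of 0.149 (edgeR, adjusted p = 0.00245), that is 1.76-fold higher in iRGCs, and it was 2.67 with the pan-neuronal scaling, where the median of all genes was 1.82. An antisense gene on the other strand, A830092H15Rik, shares 9.16% of the exonic bases of Nlgn1 and had 169 to 381 counts per library against 1742 to 5070 for Nlgn1.

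Nlgn2 (chr11:69823122-69837784, minus strand) was the most abundant member. It had 229, 233 and 283 CPM in iRGCs and 535, 440 and 505 CPM in cRGCs. The iRGC libraries all lay below the cRGC libraries, and within the populations the SD was 30.3 and 48.2 CPM (n = 3). Its log2 fold change of -0.99 had an SE of 0.125 (edgeR, adjusted p = 4.50e-04) and turned to 0.81 with the pan-neuronal scaling (adjusted p = 0.00426), below the median of all genes. Per 1000 CPM of the pan-neuronal sum, Nlgn2 was at 37.1, 31.4 and 27.0 CPM in iRGCs and at 19.6, 17.4 and 18.1 CPM in cRGCs. No other annotated gene shares its exons.

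Nlgn3 (chrX:101299168-101325963, plus strand) encodes neuroligin-3, which occurs at both kinds of synapse. The libraries had 15.1, 12 and 11.4 CPM in iRGCs and 54.2, 45.6 and 33.6 CPM in cRGCs. The lowest cRGC library was above the highest iRGC library. The log2 fold change was -1.79 with an SE of 0.214 (edgeR, adjusted p = 3.58e-04) but 0.07 with the pan-neuronal scaling (adjusted p = 0.859). Relative to the pan-neuronal sum the populations overlapped, at 2.45, 1.62 and 1.09 CPM per 1000 CPM in iRGCs and 1.99, 1.80 and 1.2 CPM in cRGCs. A transcript on the same strand, Gm21986, covers 41.2% of the exonic bases of Nlgn3, so reads in the shared part may have been left out as ambiguous and the level of Nlgn3 is uncertain.

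Within the neuroligins, the share of Nlgn1 per kilobase was 22.8%, 19.8% and 17.4% in iRGCs and 4.83%, 7.59% and 7.24% in cRGCs. Nlgn2 held 77.4 ± 3.19% in iRGCs and 88.5 ± 1.45% in cRGCs, and Nlgn3 2.53 ± 0.51% and 4.99 ± 1.12% (SD, n = 3). With the bases shared with other genes taken off the exon lengths, Nlgn3 held 4.14% and 8.14%. So Nlgn2 was the bulk of the family in every library, with a larger place for Nlgn1 in iRGCs. The log2 ratio of Nlgn1 to Nlgn2 counts was 1.82 higher in iRGCs and that of Nlgn1 to Nlgn3 was 2.60 higher, and each separated the populations without overlap (exact permutation test, p = 0.1, adjusted p = 0.143). The counts of Nlgn1 were 0.713, 0.592 and 0.503 times those of Nlgn2 in iRGCs and 0.125, 0.203 and 0.189 times in cRGCs.

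**Figure D3:**
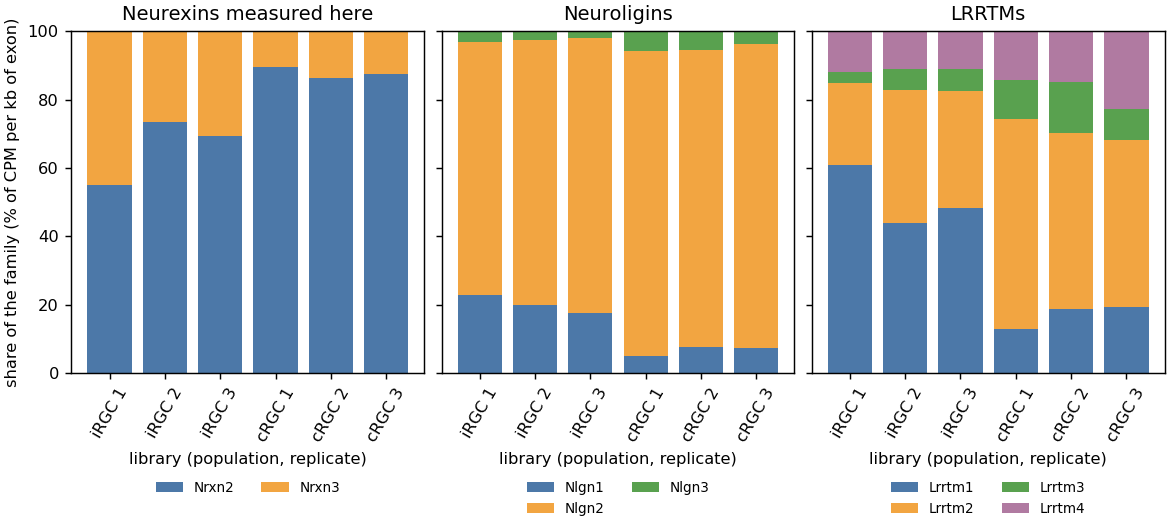
Share of each gene in the summed level of its family in each library, in percent of CPM per kilobase of exon, for the 2 neurexins measured here, the 3 neuroligins and the 4 LRRTMs. The share of Nrxn3, Nlgn1 and Lrrtm1 is larger in each of the 3 iRGC libraries than in any cRGC library, and as a share within a library it does not depend on the scaling between libraries.

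LRRTMs are single-pass proteins with an extracellular stretch of leucine-rich repeats. LRRTM1 and LRRTM2 bind neurexins and organize excitatory synapses, and LRRTM3 and LRRTM4 also work through heparan sulfate on neurexins and glypicans. Lrrtm1 (chr6:77242689-77257791, plus strand) had 17.0, 10.8 and 18 CPM in iRGCs and 5.38, 8.84 and 10.5 CPM in cRGCs. The populations did not overlap, but the lowest iRGC library and the highest cRGC library nearly met. Its log2 fold change was 0.89 with an SE of 0.315 (edgeR, adjusted p = 0.0506) and 2.70 with the pan-neuronal scaling. The call was lost without iRGC replicate 1 (adjusted p = 0.118), without iRGC replicate 3 (0.140) and without cRGC replicate 1 (0.145), with log2 fold changes of 0.81, 0.75 and 0.65 in these edgeR fits.

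Lrrtm2, on the minus strand of chromosome 18, had 13.3, 18.9 and 25.4 CPM in iRGCs and 51.1, 48.9 and 52.3 CPM in cRGCs. The cRGC libraries were nearly alike and all above the iRGC libraries. The log2 fold change of -1.40 had an SE of 0.222 (edgeR, adjusted p = 0.00124) and turned to 0.35 with the pan-neuronal scaling (adjusted p = 0.250). Per 1000 CPM of the pan-neuronal sum, it was 2.16, 2.55 and 2.42 CPM in iRGCs and 1.87, 1.94 and 1.87 CPM in cRGCs.

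Lrrtm3 (chr10:63928472-64090277, minus strand) was the scarcest member, at 1.19, 2.13 and 3.34 CPM in iRGCs and 6.80, 9.94 and 6.84 CPM in cRGCs. These rest on 37 to 106 counts per iRGC library and 177 to 288 per cRGC library. Lrrtm4 (chr6:80018877-80810143, plus strand) had 6.79, 5.50 and 8.39 CPM in iRGCs and 12.1, 14.3 and 24.8 CPM in cRGCs. Both genes were without overlap, and Lrrtm4 varied most among the cRGC libraries, with its highest value in replicate 3. The log2 fold change of Lrrtm3 was -1.82 with an SE of 0.456 (edgeR, adjusted p = 0.0119) and -0.13 with the pan-neuronal scaling (adjusted p = 0.842). That of Lrrtm4 was -1.31 with an SE of 0.320 (edgeR, adjusted p = 0.0108) and turned to 0.49 with the pan-neuronal scaling (adjusted p = 0.265). Relative to the pan-neuronal sum, both genes overlapped between the populations. An antisense gene, Gm4409, shares 25.1% of the exonic bases of Lrrtm4, and it had at most 4 counts in any library. If counting ignored strand, reads in the shared part may have been left out as ambiguous, so the level of Lrrtm4 is uncertain.

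Within the LRRTM family, Lrrtm1 was the largest part in each iRGC library, at 60.9%, 44.0% and 48.2% of CPM per kilobase, and 12.8%, 18.6% and 19.4% in cRGCs. Lrrtm2 was the largest in each cRGC library, at 61.3%, 51.7% and 48.9%, and 24.0%, 38.8% and 34.3% in iRGCs. Lrrtm3 held 5.21 ± 1.87% in iRGCs and 11.8 ± 2.93% in cRGCs, and Lrrtm4 11.4 ± 0.55% and 17.2 ± 4.70% (SD, n = 3). On exon lengths without shared bases, Lrrtm4 held 14.6% and 21.5%. The log2 ratios of Lrrtm1 to Lrrtm2, Lrrtm3 and Lrrtm4 were 2.36, 2.82 and 2.17 higher in iRGCs, and all 3 separated the populations (exact permutation test, p = 0.1, adjusted p = 0.143). Among the remaining 3 genes the ratios overlapped, with differences of 0.47 for Lrrtm2 to Lrrtm3, -0.19 for Lrrtm2 to Lrrtm4 and -0.66 for Lrrtm3 to Lrrtm4 (exact permutation test, p = 0.2, 0.6 and 0.3). Of the 10 pairs within the 3 families, 7 did not overlap, beside 52.3% of all pairs of tested genes, and among the 7 was Nlgn2 to Nlgn3, whose log2 ratio was 0.78 higher in iRGCs.

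Set in order of level per kilobase of exon, Nlgn2 came first in both populations, at 42.9 ± 5.25 CPM per kilobase in iRGCs and 85.3 ± 8.34 in cRGCs. In iRGCs it was followed by Nlgn1 at 11 ± 1.00, Nrxn2 at 6.12 ± 2.01, Lrrtm1 at 5.03 ± 1.28, Lrrtm2 at 3.19 ± 1.01 and Nrxn3 at 3.09 ± 0.90 CPM per kilobase, and the libraries of Nrxn2 and Lrrtm1, of Lrrtm1 and Lrrtm2, and of Lrrtm2 and Nrxn3 overlapped. At the low end stood Nlgn3 at 1.38 ± 0.21 and Lrrtm4 at 1.12 ± 0.24, which overlapped, and Lrrtm3 at 0.52 ± 0.25 CPM per kilobase. In cRGCs the second place was taken by Nrxn2 at 26.7 ± 2.5, then came Lrrtm2 at 8.43 ± 0.29 and Nlgn1 at 6.25 ± 1.11 CPM per kilobase, and from Nlgn1 down each gene overlapped the next, through Nlgn3 at 4.79 ± 1.11, Nrxn3 at 3.70 ± 0.36, Lrrtm4 at 2.77 ± 1.10 and Lrrtm1 at 2.71 ± 0.85 to Lrrtm3 at 1.85 ± 0.42. On exon lengths without shared bases Nlgn3 was at 8.16 CPM per kilobase in cRGCs, above Nlgn1 at 6.88 and next to Lrrtm2 at 8.57, so its place in this order depends on the length used. Among 15877 tested genes with an exon length, Nlgn2 lay at percentile 94.9 in iRGCs and 97.9 in cRGCs, Nrxn2 at 53.2 and 88.1, Nlgn1 at 69.0 and 55.1, and Lrrtm3 at 15.2 and 31.9.

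Several LRRTM genes lie inside genes of alpha-catenins, which link cadherins to the actin skeleton. Lrrtm1 lies within Ctnna2, Lrrtm2 within Ctnna1 and Lrrtm3 within Ctnna3, each on the strand opposite to its host. Ctnna2, the neuronal alpha-catenin, had 116, 129 and 182 CPM in iRGCs and 437, 375 and 393 CPM in cRGCs, with a log2 fold change of -1.50 and an SE of 0.170 (edgeR, adjusted p = 2.89e-04), and of 0.27 with the pan-neuronal scaling. Ctnna1, the alpha-catenin of epithelia and many other cells, had 290, 315 and 267 CPM in iRGCs and 113, 140 and 124 CPM in cRGCs, and so stood at a log2 fold change of 1.21 with an SE of 0.118 (edgeR, adjusted p = 2.18e-04) and of 3.05 with the pan-neuronal scaling. With TMM Lrrtm1 was up where Ctnna2 was down and Lrrtm2 was down where Ctnna1 was up. The pan-neuronal scaling shifts all genes by about the same amount, and so leaves each of these pairs on different sides of the median of all genes. Ctnna3, the host of Lrrtm3, was not tested, as it had at most 8 counts in any library, at 0, 0.12 and 0.09 CPM in iRGCs and 0.31, 0.28 and 0.23 CPM in cRGCs. With TMM Ctnna3 and Lrrtm3 were thus both at lower values in iRGCs. Lrrtm1 and Lrrtm3 share no exonic bases with their hosts, and Lrrtm2 shares 95 bases with the far more abundant Ctnna1. Whether counting used strand is not given in the sources used here. How far reads of a host gene, from exons or introns, were counted on its nested gene was not tested.

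**Figure D4:**
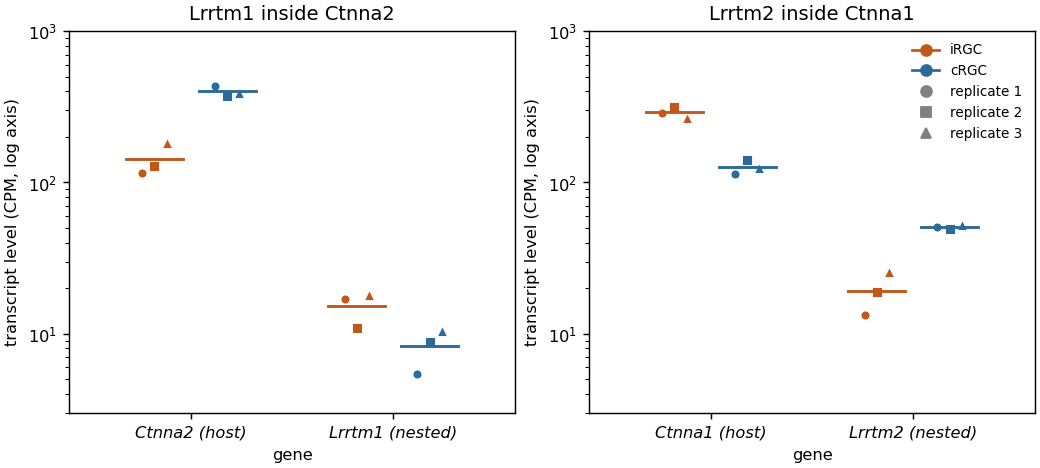
Levels in CPM after TMM normalization (log axis) of Ctnna2 with the gene Lrrtm1 that lies inside it and of Ctnna1 with Lrrtm2 inside it, by library, with population means as bars. Host and nested gene differ between iRGCs and cRGCs in opposite directions in both pairs on this scaling, while with the pan-neuronal scaling the values of Lrrtm1, Lrrtm2, Ctnna1 and Ctnna2 are all above 0.

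The sequence before the start of the gene is shown for members that moved apart within a family, Nlgn1 against Nlgn2 and Lrrtm1 against Lrrtm4, and for the single window that held a searched motif, in Nrxn3. Windows are the 250 bases before a RefSeq start on GRCm38.p6, on the strand of the gene, and RefSeq windows matched 6 of the 9 members with 10 starts. The Nlgn1 window is chr3:26153987-26154236 (minus strand), before a start inside the gene, that of Nlgn2 is chr11:69837785-69838034 (minus strand), that of Lrrtm1 chr6:77242227-77242476 (plus strand), that of Lrrtm4 chr6:80018627-80018876 (plus strand), and that of Nrxn3 chr12:88953140-88953389 (plus strand), inside the gene. None of these 5 windows overlaps an annotated exon, and capitals mark the motif in the Nrxn3 window.
Nlgn1: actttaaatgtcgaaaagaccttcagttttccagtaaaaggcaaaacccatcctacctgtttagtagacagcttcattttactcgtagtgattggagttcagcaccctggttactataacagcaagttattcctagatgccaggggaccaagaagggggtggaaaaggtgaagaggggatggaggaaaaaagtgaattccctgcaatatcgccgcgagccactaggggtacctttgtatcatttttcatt
Nlgn2: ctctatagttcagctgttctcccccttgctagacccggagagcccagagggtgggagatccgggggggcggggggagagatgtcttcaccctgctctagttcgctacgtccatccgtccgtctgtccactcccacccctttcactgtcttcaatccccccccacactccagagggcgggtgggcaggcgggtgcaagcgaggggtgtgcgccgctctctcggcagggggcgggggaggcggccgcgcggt
Lrrtm1: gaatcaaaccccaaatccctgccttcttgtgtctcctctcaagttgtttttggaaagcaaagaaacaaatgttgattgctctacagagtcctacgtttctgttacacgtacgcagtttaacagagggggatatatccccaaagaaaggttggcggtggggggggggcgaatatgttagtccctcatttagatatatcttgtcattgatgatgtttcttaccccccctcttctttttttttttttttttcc
Lrrtm4: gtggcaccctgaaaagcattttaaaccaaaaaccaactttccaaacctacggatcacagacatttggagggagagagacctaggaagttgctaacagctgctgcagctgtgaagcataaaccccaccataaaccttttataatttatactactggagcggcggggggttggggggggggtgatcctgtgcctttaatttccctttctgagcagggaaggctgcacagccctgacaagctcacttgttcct
Nrxn3: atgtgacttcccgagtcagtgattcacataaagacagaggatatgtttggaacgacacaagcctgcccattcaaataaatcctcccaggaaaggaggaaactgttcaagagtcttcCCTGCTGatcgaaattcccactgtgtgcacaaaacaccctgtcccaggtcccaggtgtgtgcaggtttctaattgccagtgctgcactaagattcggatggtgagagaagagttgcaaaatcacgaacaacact

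The Nlgn2 window held 18 CpG dinucleotides at 67.6% G and C, the Nlgn1 window 5 at 43.6%, the Lrrtm1 window 5 at 42.0% and the Lrrtm4 window 3 at 49.2%. A second window of Nlgn1, at the 5′ end of the gene, held 9 at 53.6% and a second one of Lrrtm4 held 8 at 54.0%, and both lie in annotated exons and are not printed. Lrrtm1 moved apart further from Lrrtm3 and Lrrtm2 than from Lrrtm4, but the Lrrtm3 window, with 6 CpG dinucleotides at 46.0%, reaches 22 bases into an annotated exon and is not printed either, and none was matched for Lrrtm2. Both strands were searched for TAATTA, a core of homeodomain sites, for ATTAAT, a core of POU4F sites, and for CAGCAGG, a core of ZIC sites; TAATTA and ATTAAT can overlap by 4 letters. Of 32851 windows of the same length, 4.84% held TAATTA, 4.39% ATTAAT and 8.44% CAGCAGG. Among the 10 windows of the members, 1 held any of these, the Nrxn3 window with CAGCAGG read on the other strand as CCTGCTG. A match is a description of the letters and not of a bound site.

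The genes around these adhesion proteins were read in the same fit, in lists of partners chosen with earlier results of these data known. Of 80 tested genes in the 6 lists, 14 (17.5%) were higher and 53 (66.25%) lower in iRGCs with TMM, beside 23.3% and 23.1% of all tested genes. Their median log2 fold change was -0.93. The pan-neuronal scaling gave 53 higher and 1 lower, where 78.1% of all tested genes were higher and 0.439% lower, at a median of 0.82 where that of all genes was 1.82. These shares of all genes also stand beside the counts of each list below. With 1 library left out, 13 to 14 partner genes were higher and 48 to 53 lower with TMM. The pan-neuronal and progenitor sums given above differed between the same libraries, and their part in these counts was not tested.

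Extracellular partners, which bind neurexins or neuroligins in the cleft, split evenly. Of 16 tested of 19, 6 were higher and 6 lower with TMM (9 and 0 with the pan-neuronal scaling), at a median of -0.80. Gpc4, a glypican that binds LRRTM4, was at 27.8 ± 5.60 CPM in iRGCs and 5.74 ± 2.95 in cRGCs, a log2 fold change of 2.27 (edgeR, adjusted p = 0.00106). Nxph4, which encodes a neurexophilin, a secreted neurexin ligand, had a log2 fold change of 2.27, and C1ql3, a secreted complement-like ligand of certain neurexin-3 forms, one of 1.82 (edgeR, adjusted p = 0.00186 and 0.00991). With the pan-neuronal scaling they were at 4.09, 4.04 and 3.69, above the median of all genes there. The calsyntenins, transmembrane proteins with cadherin repeats, were all on the other side with TMM, with Clstn2 at -2.13, Clstn3 at -1.36 and Clstn1, the most abundant of the list, at -0.74 (edgeR, adjusted p = 2.46e-04, 0.00119 and 0.00163), where the pan-neuronal scaling gave -0.37, 0.38 and 1.06. Cbln1, the secreted bridge between neurexins and delta glutamate receptors, was at -1.29 (edgeR, adjusted p = 0.0292) and 0.38 with the pan-neuronal scaling.

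The LAR-type phosphatases and the leucine-rich and immunoglobulin proteins that bind them or the netrin-Gs form a parallel set of synaptic organizers. Of 22 tested of 23, 4 were higher and 14 lower with TMM (14 and 0 with the pan-neuronal scaling), at a median of -0.92. Slitrk2 was at 23.5 ± 3.53 CPM in iRGCs and 4.49 ± 3.17 in cRGCs, and its log2 fold change was 2.39 (edgeR, adjusted p = 0.00483), or 3.08 without cRGC replicate 2. Ntng2, a netrin-G anchored in the membrane, was at 1.92 and Slitrk6 at 1.87 (edgeR, adjusted p = 0.00246 and 0.00142). With the pan-neuronal scaling Slitrk2, Ntng2 and Slitrk6 were at 4.21, 3.77 and 3.74, above the median of all genes. Lrfn5 was at 26.6 ± 15.3 CPM in iRGCs and 112 ± 12.3 in cRGCs, a log2 fold change of -2.07 (edgeR, adjusted p = 0.00243) that became -0.41 with the pan-neuronal scaling. With the pan-neuronal scaling Lrfn2 and Il1rapl1 were at -0.18 and -1.28, without a call (edgeR, adjusted p = 0.786 and 0.205). With TMM Lrfn2 was at -1.87 (edgeR, adjusted p = 0.0356; 0.115 without cRGC replicate 3) and Il1rapl1 at -2.80 (edgeR, adjusted p = 0.0620), the latter listed at 0 in iRGC replicate 1 and lost without iRGC replicate 2 or any one cRGC library (adjusted p from 0.103 to 0.170). The Il1rapl1 call was also lost with DESeq2 (adjusted p = 0.150). Its log2 fold change was -2.22 without iRGC replicate 1, -4.00 without iRGC replicate 3 and -4.62 with limma voom. Ptprs, the most abundant of the list, did not pass the threshold, at 997 ± 49.3 and 1037 ± 66.0 CPM and a log2 fold change of -0.06 with TMM, 0.15 with library totals alone and 1.79 with the pan-neuronal scaling.

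Presynaptic scaffolds link neurexin tails to the sites of vesicle release. Of 17 tested, 15 were lower and 1 higher in iRGCs with TMM (1 and 10 with the pan-neuronal scaling), at a median of -1.24. Apba1, an adaptor that binds CASK, was at 37.9 ± 14.6 CPM in iRGCs and 201 ± 23.8 in cRGCs, a log2 fold change of -2.40 (edgeR, adjusted p = 2.38e-04), and with the pan-neuronal scaling it was -0.68 (adjusted p = 0.0167). Ppfia4, a liprin-alpha, was at -2.05 and Rims1, a protein of the active zone, at -2.0 (edgeR, adjusted p = 4.63e-04 and 2.84e-04), and -0.32 and -0.25 with the pan-neuronal scaling. The higher gene was another liprin-alpha, Ppfia1, at 0.44 (edgeR, adjusted p = 0.0177) and 2.30 with the pan-neuronal scaling.

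Postsynaptic scaffolds hold neuroligins and LRRTMs together with receptors. Of 17 tested, 13 were lower and 1 higher with TMM (0 and 13 with the pan-neuronal scaling), at a median of -1.0. The gene that was higher was Dlg1, which encodes SAP97 and also serves cell polarity in epithelia, at 98.6 ± 10.5 CPM in iRGCs and 41.2 ± 3.83 in cRGCs (log2 fold change 1.26; edgeR, adjusted p = 2.42e-04; 3.12 with the pan-neuronal scaling). Shank1 was at -2.09 and Dlg2, which encodes PSD-93, at -1.51 (edgeR, adjusted p = 2.90e-04 and 0.00288), and the pan-neuronal scaling gave -0.34 and 0.20. Dlgap4, the most abundant, was at -1.0 (edgeR, adjusted p = 4.06e-04) and 0.80 with the pan-neuronal scaling. Dlgap2 was at -1.86 (edgeR, adjusted p = 0.0693) on 17 to 65 counts per library, and that call was lost without iRGC replicate 2 or 3 or any one cRGC library (adjusted p from 0.132 to 0.184), with library totals alone (0.1005), without the filter on low counts (0.201) and with the pan-neuronal scaling, which put Dlgap2 at -0.016 (0.990).

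Proteins that splice or cut neurexins and neuroligins made up a list of 6, of which 4 were lower and 1 higher with TMM (0 and 6 with the pan-neuronal scaling), at a median of -0.49. Khdrbs3, the SLM2 protein that sets the splice choice at a neurexin segment on which LRRTM and neuroligin binding depend, was at 210 ± 15 CPM in iRGCs and 124 ± 12.3 in cRGCs, a log2 fold change of 0.76 (edgeR, adjusted p = 9.05e-04) and of 2.58 with the pan-neuronal scaling, where the median of all genes was 1.82. Its relative Khdrbs2 was at -0.52 (edgeR, adjusted p = 0.0456; 0.157 without cRGC replicate 3 and 0.182 with library totals alone) and 1.29 with the pan-neuronal scaling. The proteases Adam10, the most abundant of the list, and Bace1 were at -1.08 and -0.51 (edgeR, adjusted p = 0.00287 and 0.00868), where the pan-neuronal scaling gave 0.74 and 1.32. Counts per gene do not show which splice forms were present.

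**Figure D5:**
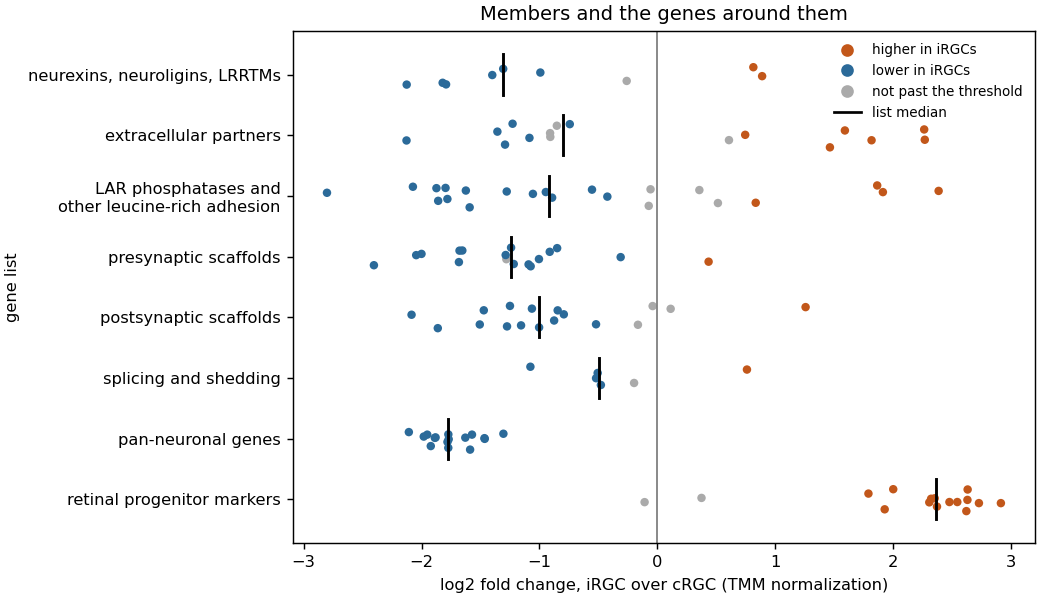
Log2 fold change of iRGCs over cRGCs with TMM normalization for each tested member and each tested gene of the partner lists, beside the pan-neuronal genes and the retinal progenitor markers, with the list median as a black bar. The presynaptic scaffolds (15 of 17) and postsynaptic scaffolds (13 of 17) lie mostly in blue as lower in iRGCs on this scaling, with 1 and 0 lower under the pan-neuronal scaling, and the extracellular partners are split 6 and 6. Of all tested genes, 23.1% were lower with TMM and 0.439% with the pan-neuronal scaling.

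For each member, the gene with the most similar profile over the 6 libraries was found among 9926 protein-coding genes outside the lists with a mean of at least 10 CPM, by the root mean square difference of centred log2 CPM. For Nrxn2 this was Disp2 (0.04), for Nlgn2 4930402H24Rik (0.03), for Lrrtm2 Mturn (0.04) and for Nlgn1 E2f6 (0.06). Nlgn3 was nearest to Zfhx3 (0.09) and Nrxn3 to Sez6 (0.11), while Lrrtm3, Lrrtm1 and Lrrtm4 had no profile as close, with Rims4 (0.15), Syt9 (0.16) and Tshz2 (0.18). Such likeness rests on 6 libraries that differ chiefly between the populations.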

How the data were processed

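RNA-seq libraries of sorted iRGCs and cRGCs, 3 each, were analysed, and the 13 ATAC-seq samples were not analysed here. The authors aligned reads to mm10 with HISAT2 2.1.0 and deposited counts per gene from HTSeq 0.11.1 on the Ensembl annotation of GRCm38, without normalization. Whether counting used strand is not given in the sources used here. HTSeq's tallies that name no gene, 43.1% to 47.3% of all tallies, stayed out of library sizes and tests. Symbols, positions and merged exon lengths came from GENCODE M21.

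Counts were filtered with filterByExpr, normalized with TMM and tested in R 4.3.3 with edgeR 4.0.16's quasi-likelihood test, without a block, with Benjamini-Hochberg adjustment over 15941 genes at 0.1, the rate of the study, which used DESeq2. DEGs also had an absolute log2 fold change above 1. The SE was taken from the log2 fold change and the F statistic, as its size over root F. The biological coefficient of variation was 36.3%. Ratios within a library (0.5 counts added) were compared with exact permutation tests. Alternatives used DESeq2 1.42.0, limma 3.58.1, other factors, other filters, each library left out and a replicate block. The script was tested on simulated counts.

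Members, lists and the rule for named genes were chosen with earlier results of these data known. The rule takes all members, from each partner list at most 3 genes per direction past the threshold without overlap and the most abundant gene, from each marker list the most abundant gene, and the host genes. From the partner lists, 1 gene that this rule takes is not reported here. Pecam1, Cdh5, Slc6a4 and genes that overlap a member were named after their values were seen.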

Additional observations from a re-analysis of the deposited data

How the results depend on the processing

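Fold changes and counts of calls were recomputed with other normalization factors, tests, filters and thresholds and with each library left out, ratios with another pseudocount and each library left out, and shares with other lengths and each library left out. Marker sums, levels relative to the pan-neuronal sum, percentiles, nearest profiles and motif searches were not. The scaling to the pan-neuronal list changed most. It moved the log2 fold changes of Nrxn3 to 1.56, Nlgn2 to 0.81, Nlgn3 to 0.0713, Lrrtm2 to 0.35 and Lrrtm4 to 0.49, and left Nrxn2 at -0.39 and Lrrtm3 at -0.13 without their call. It gave 4 members higher and 0 lower, 53 partner genes higher and 1 lower, and 12452 of all genes higher and 70 lower. Among partners it gave Clstn3 0.38, Cbln1 0.38, Clstn1 1.06, Lrfn2 -0.18, Il1rapl1 -1.28, Dlgap2 -0.016, Ptprs 1.79, Dlg2 0.20, Dlgap4 0.80, Adam10 0.74, Khdrbs2 1.29, Bace1 1.32 and Ctnna2 0.27. Since the list itself was lower in iRGCs in all 16 genes, the factors raise every gene there. With library totals alone, which moved the median of all genes to 0.20, Ptprs was at 0.15, and 64.2% of all calls were higher in iRGCs against 50.1% with TMM. The call of Lrrtm1 rests on an adjusted p near the threshold. Its log2 fold change was 0.65 to 1.10 with 1 library left out, and at an adjusted p under 0.05 its value of 0.89 did not pass, so the number of higher members was 1 to 2 with 1 library left out and 1 at that threshold. With an absolute log2 fold change above 1, 0 members were higher and 5 lower, and of all genes 1930 were higher and 1758 lower. The difference in the log2 ratio of Lrrtm2 to Lrrtm4 was -0.47 to 0.048 with 1 library left out. With the longest transcript as the length, Nrxn2 made up 90.3% of its family in cRGCs, and with shared bases taken off the length, an alternative chosen after seeing the data, Nlgn2 made up 84.9% and Nlgn3 8.14%. Lrrtm4 made up 14.6% of its family in iRGCs and 21.5% in cRGCs on the length without shared bases. Same-numbered libraries did not deviate together (correlations of -0.01, -0.02 and -0.06), and with the replicate number as a block 3316 of all genes were higher and 3435 lower, with 2 members higher and 6 lower as before, while Il1rapl1 and Dlgap2 were then past the threshold no longer (edgeR, adjusted p = 0.100 and 0.168). Lrrtm3 rests on the fewest counts of the members, 37 to 288 per library.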
